A study of Mus musculus with 10 samples.

Results

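MAPK feedback inhibitors are genes whose products switch off the signalling that induces them, and 10 of them were followed here: the dual-specificity phosphatases Dusp1, Dusp4, Dusp5 and Dusp6, the Sprouty genes Spry1, Spry2 and Spry4, the Sprouty-related genes Spred1 and Spred2, and the receptor inhibitor Errfi1. They were chosen by name, with earlier results of these data known. Each transcript in the table was assigned to its gene symbol and summed per gene. All 10 were found among 32903 genes in the table, and all 10 passed the filter on low counts that left 14597 genes for testing. RNA was sequenced from cultured preadipocytes, the precursors of fat cells, from male wild-type C57BL/6 mice, from fat tissue labelled iSAT. There were 10 libraries: in 5 the cells received the vehicle DMSO alone, and in 5 they received BPS (bisphenol S, an analogue of bisphenol A) at 2.5 µM in the same vehicle. All groups were wild type, and no transgene or other agent was named. Neither the age of the animals, nor the length of exposure, nor the source of each replicate (animal, dish or aliquot) was stated, so p-values measure only the spread between these samples. The library codes number the DMSO libraries before the BPS libraries, so a batch that followed that order cannot be told apart from the treatment.

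Growth factor receptors activate RAS, which passes the signal through RAF and MEK kinases to ERK, one of the mitogen-activated protein kinases (MAPK). Active ERK raises the transcription of early genes, among them inhibitors of its own pathway, so that levels of these inhibitors are widely read as a record of recent ERK activity. In preadipocytes ERK signalling serves proliferation and the early steps of fat cell differentiation.

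Of the 10 inhibitors, 2 had higher RNA levels in BPS than in DMSO: Dusp1, by 1.29-fold, and Errfi1, by 1.1-fold. The Dusp1 call held in all 23 alternative analyses of counts summed per gene and the Errfi1 call in 10 of 22. Tested among single transcripts, neither passed. Summed per gene, the other 8 members did not pass an adjusted p of 0.05. Over all genes tested, 712 of 14597 passed, which is 4.88%, with 3.06% higher and 1.82% lower in BPS. That number and its balance depended on the analysis: scaling by library size alone gave 334 higher and 394 lower, the replicate block left 374 genes in all, curated accessions 311, and omission of DMSO library 2 449. No member was called lower. The log2 differences of the members had a median of 0.13, with 7 of 10 (70%) above 0, beside a median of 0 over all genes, of which 50.2% were above 0. Among the pathway lists described below, the share above 0 was 71.4% for further inhibitors, 68.4% for ligands and 77.3% for ERK-responsive genes. It was 50% for receptors and for the RAS to ERK cascade, and 35.7% for the JNK and p38 cascades. Several members varied together across libraries, so the signs of the members are not independent. A difference in RNA level in these cultures can come from RNA per cell or from the share of cells that express the gene, and the 2 cannot be told apart. For Dusp1 and Errfi1, which passed, and for Dusp5, which did not, the 250 bases upstream of the start are shown to compare the motifs they hold. They are printed 5′ to 3′ on the strand of the gene, from RefSeq (GRCm38.p6). Capitals mark the cAMP response element TGACGTCA (CRE), its core TGACG on either strand, and the CArG box, to which serum response factor binds.
Dusp1: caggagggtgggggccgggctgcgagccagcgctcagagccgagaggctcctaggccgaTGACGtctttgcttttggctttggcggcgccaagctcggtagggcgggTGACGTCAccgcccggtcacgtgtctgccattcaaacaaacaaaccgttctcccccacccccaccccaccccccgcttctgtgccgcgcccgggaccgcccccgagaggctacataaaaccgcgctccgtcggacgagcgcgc
Errfi1: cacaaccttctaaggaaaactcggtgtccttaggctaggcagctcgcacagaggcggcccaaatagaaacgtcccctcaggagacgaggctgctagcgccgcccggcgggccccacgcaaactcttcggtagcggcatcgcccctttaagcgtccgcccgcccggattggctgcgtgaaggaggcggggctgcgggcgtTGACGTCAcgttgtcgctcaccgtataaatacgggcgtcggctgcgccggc
Dusp5: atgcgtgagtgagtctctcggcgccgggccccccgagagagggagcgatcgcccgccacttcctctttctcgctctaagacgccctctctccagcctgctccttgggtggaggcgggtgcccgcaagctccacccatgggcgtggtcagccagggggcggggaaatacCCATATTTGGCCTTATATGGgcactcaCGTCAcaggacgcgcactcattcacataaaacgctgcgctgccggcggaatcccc

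The Dusp1 window lies at chr17:26508473-26508722 on the minus strand, and 68.4% of its bases are G or C. It holds a full CRE from 143 to 136 bases before the start and a further core from 191 to 187 bases before it. The Errfi1 window lies at chr4:150854820-150855069 on the plus strand, upstream of the second of 2 annotated starts, and holds a CRE from 51 to 44 bases before the start. The single Errfi1 transcript counted here has its first base at position 150855073 in the GENCODE annotation, beside that second start. The Dusp5 window, chr19:53528895-53529144 on the plus strand, holds 2 adjacent CArG boxes, from 82 to 73 and from 72 to 63 bases before the start, and a CRE core on the other strand from 55 to 51.

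A full CRE is found in 1.55% of 32851 such windows, and among the 9 windows of 8 members it was found in those of Dusp1 and Errfi1, the pair that passed the test. This was noticed after the test, in a search of 7 motifs on both strands, and it rests on the call of Errfi1, which 12 of 22 alternatives lost. Dusp4 and Spry4 had no window and were not searched. Their log2 differences (0.24 and 0.23) were the next largest after that of Dusp1. The core TGACG, which every full CRE contains, is in 17.8% of windows and was found for Dusp1, Dusp5, Errfi1 and Spred2. A CArG box is in 1.47% of windows and was found for Dusp5. None of the 9 windows searched held the AP-1 motif TGANTCA (4.46% of windows, with C or G as the middle letter), the ETS motif CCGGAA (12.0%) or the EGR motif GCGNGGGCG (4.7%). The dioxin response core GCGTG is in 28.2% of windows and was found for Dusp5, Errfi1, Spred2 and Spry1. Counted per gene, among the 11456 tested genes with any window, 5462 held this core, 3349 the CRE core and 2713 the ETS motif. The EGR motif was held by 1133, AP-1 by 490, a full CRE by 337 and a CArG box by 165. Shares of tested genes can thus differ from the shares of windows given here. Of the 337 tested genes with a full CRE in a window, 3.56% were called higher in BPS, beside 2.99% of the 11456 tested genes with any window. These matches describe letters in a window and not bound sites.

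Dusp1 encodes a nuclear phosphatase that inactivates p38, JNK and ERK and is itself an early gene induced by growth factors and stress. Its level, in CPM (counts scaled by the TMM-adjusted library size to a common total), was 12.5, 13.2, 11.2, 11.6 and 12.9 in DMSO libraries 1 to 5 and 15.2, 17.6, 15.1, 15.7 and 15.4 in BPS libraries 1 to 5. All 5 BPS libraries lay above all 5 DMSO libraries, with BPS library 2 standing above the other 4. A complete separation with BPS higher was found for 4.19% of all genes tested. The means were 12.3 ± 0.863 and 15.8 ± 1.02 CPM (SD, n = 5 each), a log2 difference of 0.36 with a standard error (SE) of 0.06 and a 95% interval of 0.24 to 0.49 (edgeR quasi-likelihood test, adjusted p = 0.0051). Dusp1 held rank 148 by p among all genes tested. The call was kept in all 23 alternative analyses of counts summed per gene, with log2 differences of 0.32 to 0.39.

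Errfi1 (also known as Mig6) encodes a cytoplasmic protein that binds the kinase domain of the epidermal growth factor receptor and blocks it. Its level was 289.6, 283.2, 270.5, 280.9 and 296.8 CPM with DMSO libraries 1 to 5 and 320.0, 328.2, 290.8, 320.0 and 301.1 CPM with BPS libraries 1 to 5. BPS library 3 lay within the DMSO range and the other 4 BPS libraries lay above it. The means were 284.2 ± 9.82 and 312.0 ± 15.5 CPM (SD, n = 5 each), a log2 difference of 0.14 (SE 0.03, 95% interval 0.06 to 0.21, adjusted p = 0.0461). The call was lost in 12 of 22 alternatives, among them a replicate block (adjusted p = 0.053) and leaving out DMSO library 1, 2, 3 or 4 or BPS library 1, 2 or 4 (adjusted p from 0.0714 to 0.103). The adjusted p ranged from 0.00667 to 0.103 over all alternatives, and the log2 difference stayed between 0.12 and 0.16.

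**Figure D1:**
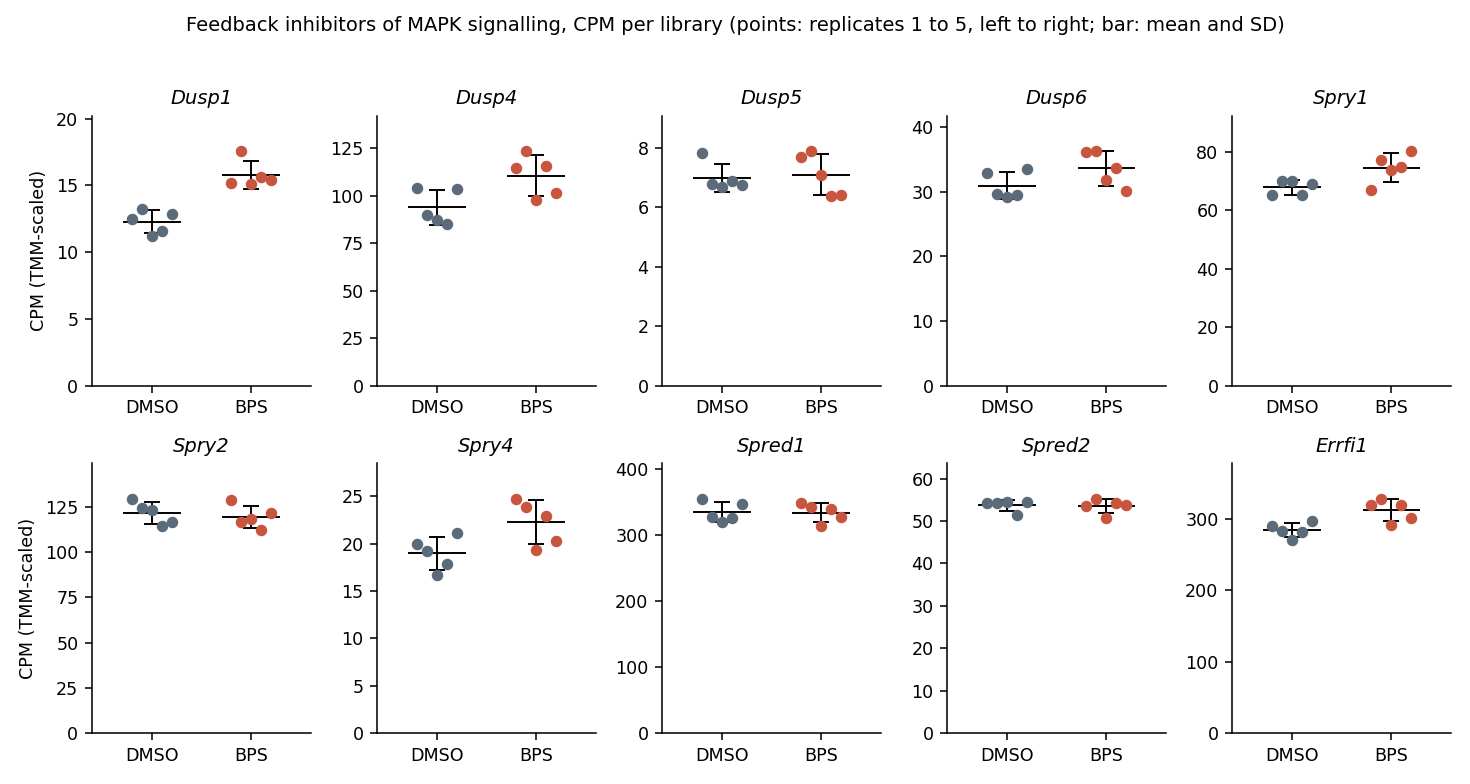
CPM (vertical axis, linear from 0) of each of the 10 inhibitors in the 5 DMSO and 5 BPS libraries, with replicates 1 to 5 from left to right in each group, and the mean and SD as bars. The groups separate for Dusp1, at 11.2 to 13.2 CPM with DMSO and 15.1 to 17.6 CPM with BPS, and overlap for the other 9.

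The other phosphatases differ in place and target. Dusp4 encodes a nuclear phosphatase of ERK and JNK, and its level was 104.2, 90.0, 87.0, 85.2 and 103.3 CPM with DMSO and 114.8, 123.5, 97.6, 115.5 and 101.4 CPM with BPS. BPS libraries 3 and 5 lay within the DMSO range and the other 3 lay above it. The log2 difference was 0.24 (SE 0.07, 95% interval 0.07 to 0.40, adjusted p = 0.0993), close in size to that of Spry4. DESeq2's Wald test called Dusp4 (adjusted p = 0.0353), and the other 22 alternatives did not, with adjusted p up to 0.201.

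Dusp6 encodes the cytoplasmic phosphatase specific for ERK and is a common transcriptional readout of ERK activity. It had 33.0, 29.6, 29.2, 29.4 and 33.6 CPM with DMSO and 36.2, 36.3, 31.9, 33.7 and 30.1 CPM with BPS. The groups overlapped, and the log2 difference of 0.12 (SE 0.06, 95% interval -0.01 to 0.25) did not pass the test (adjusted p = 0.311). Dusp5, a nuclear phosphatase specific for ERK whose upstream window carries the adjacent CArG boxes, had 6.69 to 7.84 CPM with DMSO with a median of 6.78, and 6.40 to 7.90 CPM with BPS with a median of 7.10. Its log2 difference was 0.02 (95% interval -0.14 to 0.19, adjusted p = 0.912). Of the 165 tested genes with a CArG box in a window, 20 (12.1%) were called higher in BPS, and Dusp5 was not among them. In the annotation, exons of Dusp5 share 547 bases with an antisense gene, those of Spry1 share 710 bases with a gene model on the opposite strand and those of Dusp1 share 11 bases with Ergic1. Reads in these stretches are uncertain, since the strand setting of the counting was not stated.

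Sprouty proteins are adaptors that hold back RAS and RAF activation below receptor tyrosine kinases. Spry4 had 20, 19.2, 16.7, 17.8 and 21.1 CPM with DMSO and 24.7, 23.9, 19.4, 22.9 and 20.3 CPM with BPS. BPS libraries 3 and 5 again lay within the DMSO range, and the log2 difference was 0.23 (SE 0.08, 95% interval 0.06 to 0.40, adjusted p = 0.125). Spry1 had 65.1, 70.2, 70.0, 65.2 and 68.9 CPM with DMSO and 66.9, 77.1, 73.9, 74.7 and 80.3 CPM with BPS. Here BPS library 1 alone fell within the DMSO range. The log2 difference was 0.14 (SE 0.04, 95% interval 0.04 to 0.23, adjusted p = 0.109), and without BPS library 1 it was 0.17 and passed (adjusted p = 0.0151, against 0.0151 to 0.211 over all alternatives). Spry2, the Sprouty gene with the highest level, had 114.1 to 129.4 CPM with DMSO and 112.3 to 128.6 CPM with BPS, a log2 difference of -0.02 with an interval of -0.11 to 0.07 (adjusted p = 0.821).

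Spred proteins sit at the membrane and bring neurofibromin to RAS, which inactivates it. Spred1 had 335.0 ± 15.1 CPM with DMSO and 333.7 ± 14.1 CPM with BPS, and Spred2 had 53.7 ± 1.34 and 53.5 ± 1.66 CPM (SD, n = 5 each). The log2 differences were -0.005 for both, with 95% intervals of -0.08 to 0.07 for Spred1 and -0.06 to 0.05 for Spred2 (adjusted p = 0.96 and adjusted p = 0.95). The whole interval lay below the lower limit of the Dusp1 interval for both Spred genes, Spry2 and Dusp5, and also for Errfi1 and Spry1.

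**Figure D2:**
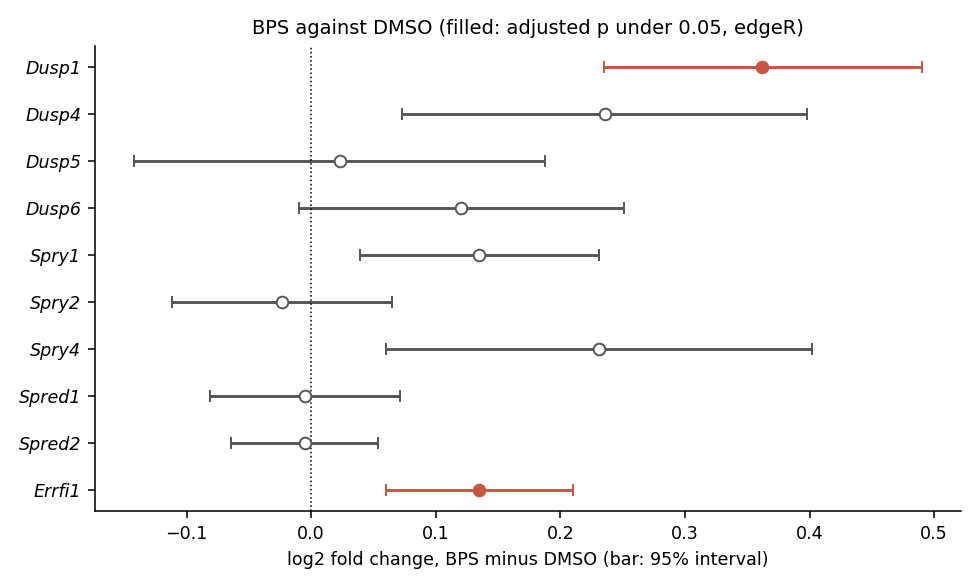
Log2 difference, BPS minus DMSO (horizontal axis), of each inhibitor with its 95% interval from the edgeR fit. Filled points, Dusp1 at 0.36 and Errfi1 at 0.14, passed an adjusted p of 0.05, and the intervals of Dusp4, Spry1 and Spry4 lie above 0 although these genes did not pass.

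Levels can be compared between genes per length of transcript. The length was that of 1 curated transcript per gene, which held 48.7% of the counts for Spry1 and 35.6% for Spred2 in DMSO, so the places of these 2 depend on that choice. In DMSO, Errfi1 had the highest level, at 93.4 ± 3.23 CPM per kilobase of its transcript. Spry2 (58.2 ± 2.97) and Spred1 (55.7 ± 2.51) followed and did not differ beyond their spread. Below them came Dusp4 at 34.3 ± 3.32, Spry1 at 27.7 ± 1.04, Spred2 at 18.8 ± 0.47 and Dusp6 at 11.1 ± 0.762 CPM per kilobase. The lowest were Dusp1 at 6.17 ± 0.434, Spry4 at 3.99 ± 0.364 and Dusp5 at 2.83 ± 0.193 CPM per kilobase. In BPS the order was the same, with Errfi1 at 103.0 ± 5.09 and Dusp1 at 7.93 ± 0.513 CPM per kilobase. Dusp1, with the largest difference, was thus among the least abundant members, and it rested on 440 to 612 counts per library, against 10628 to 12762 for Errfi1.

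Counts could also be followed by transcript. Dusp1, Dusp4, Dusp5, Dusp6, Spry4 and Errfi1 each had 1 transcript, and Spred1 had 99.6% of its counts on 1 transcript in both groups. Tested as single transcripts, none of the 18 transcripts of the members passed (edgeR quasi-likelihood test), with adjusted p = 0.0816 for the Dusp1 transcript and adjusted p = 0.318 for that of Errfi1. Only 0.335% of 37588 transcripts passed there. Spry1 spread over 4 curated transcripts: C held 48.7 ± 6.69% of its counts in DMSO and 45.2 ± 3.07% in BPS, D held 20.7 ± 3.44% and 22.0 ± 3.37%, A held 17.1 ± 1.91% and 14.8 ± 4.36%, and B held 13.5 ± 4.79% and 18.0 ± 7.05% (SD, n = 5 each). The share of B ran from 7.57% to 20.2% in DMSO and from 8.61% to 25.7% in BPS, so the groups overlapped. For Spred2, a predicted model (C) took 59.5 ± 2.88% in DMSO and 59.4 ± 3.29% in BPS, more than the curated transcript (A) with 35.6 ± 2.68% and 35.9 ± 3.72%.

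**Figure D3:**
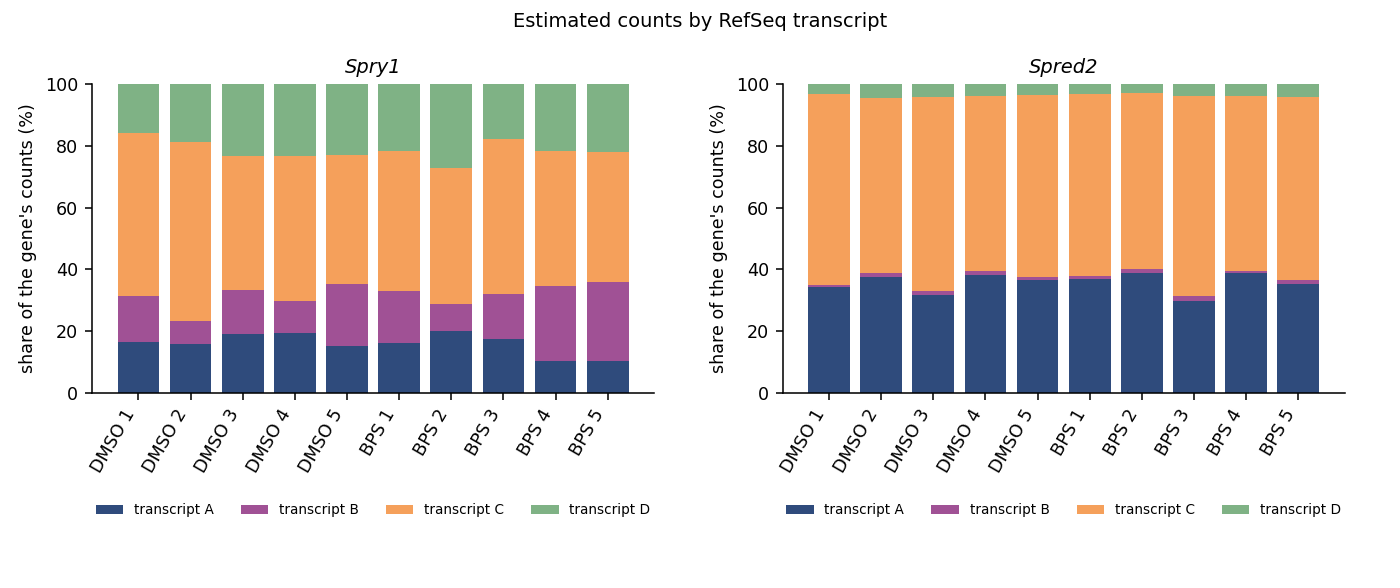
Share of each gene's estimated counts (vertical axis, %) by RefSeq transcript in each of the 10 libraries, for the members with 4 transcripts, Spry1 and Spred2. Shares of Spry1 varied within each group as much as between them, and Spred2 kept a majority on its predicted model C in all 10 libraries.

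Across libraries of the same treatment several of the inhibitors varied together. For this description the group mean of log2 CPM was taken from each library, and Pearson's r was computed over the 10 deviations. Points of 1 library share its depth and base composition, so no p is given. The 45 pairs of members had a median r of 0.48, and 11 pairs (24.4%) reached 0.7, beside a median of 0 and a share of 2.38% over all pairs of 10473 genes whose mean CPM was 5 or more. After removal of each library's trend with GC content and length, the figures were 0.51 and 26.7%, beside 2.37% of all pairs.

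Dusp4, Dusp6, Spry4, Spred1 and Errfi1, picked after their values were seen, had r from 0.84 to 0.95 in all 10 of their pairs, and from 0.86 to 0.97 after removal of the GC and length trends. Spry4 and Errfi1 were the closest pair before that removal (0.95, then 0.92), and Spry4 and Spred1 after it (0.91, then 0.97). All 5 were above their group mean in DMSO libraries 1 and 5 and BPS libraries 1, 2 and 4, and below it in DMSO libraries 3 and 4 and BPS libraries 3 and 5. Dusp4 thus ranged from 85.2 to 104.2 CPM within DMSO, and Spred1, whose group means hardly differed, from 320.1 to 354.8 CPM. Dusp1 was less close to these 5, with r from 0.46 to 0.67. Spry1 went the other way in part, with r of -0.54 with Dusp5 and -0.48 with Dusp6, and Spry2 had r from -0.10 to 0.27 with the 5. BPS library 3 was the lowest of its group for 6 of the 10 members and DMSO library 3 was the lowest of its group for 6.

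**Figure D4:**
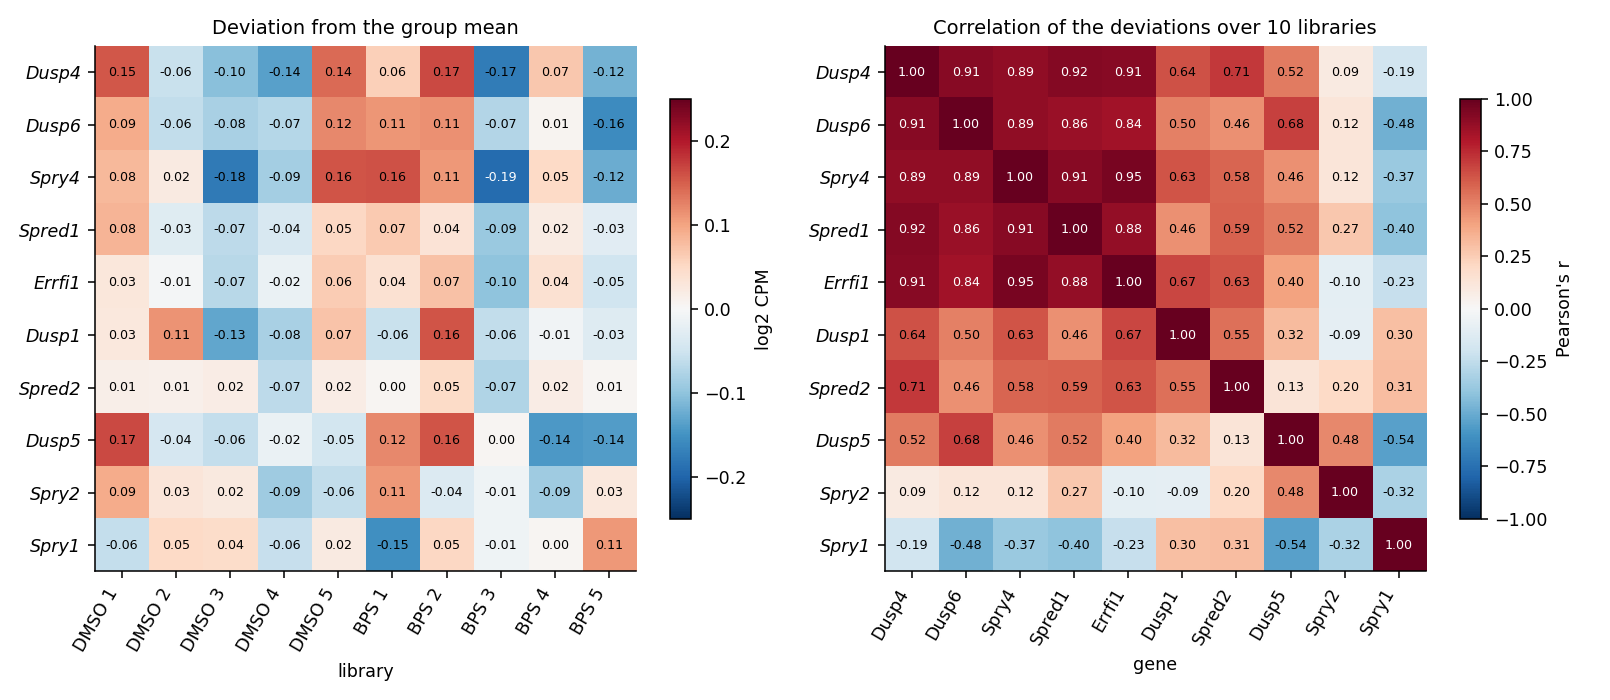
Left, deviation of log2 CPM from the group mean for each inhibitor (rows of the map) in each library (columns). Right, Pearson's r of these deviations over 10 libraries. Dusp4, Dusp6, Spry4, Spred1 and Errfi1 form a block with r from 0.84 to 0.95, and Spry1 and Spry2 lie outside it.

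Some genes of a list named ERK-responsive varied with these 5 inhibitors and some did not. Whether each gene of the list, the ELK factors among them, responds to ERK in these cells was not tested. Over the 22 in the list the median r with the 5 ran from 0.89 to -0.43, with 13 genes at 0.5 or above and 9 below, 3 of them below 0. The share of all genes with such a median r is not given here, so these counts do not set the list apart. The highest median r in the list belonged to Ccnd1, the cyclin of G1 entry (0.89), Phlda1 (0.87) and the ETS factors Etv1 (0.84), Etv5 (0.83) and Etv4 (0.80). The lowest belonged to Elk1 (0.05), Elk4 (-0.16), Ets2 (-0.30) and Myc (-0.43), and the early genes Ier2 and Junb had 0.20 and 0.24. Elk4 rested on only 3 to 105 counts per library. Dusp1 was closest to the early transcription factor Egr1 (0.82). Among all genes whose mean CPM was 10 or more, those closest to Dusp6 were Tgfb1, Raet1d and Phlda1 (0.98 each), and those closest to Dusp4 were Ints1 (0.98), Slc20a1 and Adgre5 (0.97 each). Golm1 was closest to Spry4 (0.99) and second closest to Errfi1 (0.96), after S1pr3 (0.98). Dusp1 was closest to Rab43 (0.95), Spred1 to Axl (0.97), Spry1 to Hivep1 (0.96), Spry2 to Slc39a1 (0.95), Spred2 to Usp20 (0.95) and Dusp5 to Csnk2a2 (0.98). Each of these nearest genes was picked as the highest r among all genes at that level, over only 10 libraries. A highest r picked in this way can be large for unrelated genes, and its size by chance was not computed. The nearest genes are thus a description, and whether they are regulated together with the members was not tested.

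Genes that act above and below the inhibitors were described by lists, which were also written with earlier results of these data known. Of 22 further inhibitors of the pathway, 21 were tested, 3 were called higher and 1 lower, and their median log2 difference was 0.06. Over all genes tested, 3.06% were called higher and 1.82% lower. Dusp8 and Dusp16, phosphatases of JNK and p38, had log2 differences of 0.48 (SE 0.12, adjusted p = 0.0497) and 0.18 (SE 0.04, adjusted p = 0.0322). Dusp8 rested on only 37 to 65 counts per library, its groups overlapped, and it held rank 711 by p among all genes tested. Dusp3, which acts on ERK and JNK, had 0.14 (SE 0.03, adjusted p = 0.0376). Ier3, an early gene whose product prolongs ERK phosphorylation and so is no plain inhibitor, was the one called lower. It fell to 16.3 ± 1.23 CPM with BPS, from 20.6 ± 0.978 CPM (SD, n = 5 each), a log2 difference of -0.34 (SE 0.05, adjusted p = 0.00406). The most abundant uncalled genes here were Pea15a, Rasa1 and Lrig1, with log2 differences of 0.06, 0.12 and 0.06, none of which passed.

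Among growth factor ligands, 19 of 21 were tested, 3 were called higher and none lower, with a median log2 difference of 0.02. The shares over all genes tested were 3.06% higher and 1.82% lower. Pdgfc and Pdgfa, ligands of the platelet-derived growth factor receptors, had log2 differences of 0.20 (adjusted p = 0.0118) and 0.16 (adjusted p = 0.017). Nrg1, a ligand of the ERBB receptors, had 0.43 (adjusted p = 0.0431). The most abundant uncalled ligands, Csf1, Vegfa and Fgf7, had log2 differences of 0.02, 0.02 and -0.01. Of 15 receptors, 12 were tested and none was called (2 by unadjusted p under 0.05), at a median of -0.002. Over all genes tested, 2750 of 14597 had an unadjusted p under 0.05. Egfr, the target of Errfi1, had 336.9 ± 8.07 CPM with DMSO and 340.3 ± 6.87 CPM with BPS (SD, n = 5 each), and Fgfr1 had 177.5 ± 13.8 and 178.0 ± 5.49 CPM. Pdgfra, which binds PDGF-A and PDGF-C, had 903.8 ± 14.3 and 863.3 ± 22.8 CPM (log2 difference -0.07, adjusted p = 0.0777). Axl and Pdgfrb had log2 differences of 0.004 and -0.02.

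None of the 20 genes of the RAS to ERK cascade was called, and their median log2 difference was 0.001. By unadjusted p under 0.05 there were 3 such genes among them, beside 2750 of 14597 over all genes tested. The share called over all genes tested was 4.88%. The most abundant, the adaptor Shc1, the phosphatase Ptpn11 and the kinase Map2k1, had log2 differences of -0.002, 0.02 and -0.003. Mapk3, which encodes a form of ERK itself, had a log2 difference of 0.01 with a 95% interval of -0.03 to 0.05. Of the 14 genes of the JNK and p38 cascades none was called, 3 had an unadjusted p under 0.05, and the median was -0.03. Map3k7, Mapk9 and Map2k4 had log2 differences of -0.05, -0.06 and -0.02.

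The ERK-responsive list had 5 of 22 genes called higher and none lower, with a median log2 difference of 0.09. Over all genes tested, 3.06% were called higher and 1.82% lower. Fos, which encodes a subunit of AP-1, had 1.61 to 2.40 CPM with DMSO and 4.23 to 7.64 CPM with BPS, a log2 difference of 1.37 (SE 0.17, adjusted p = 0.00104). Egr1 had 24.2 to 32.6 CPM with DMSO and 49.2 to 68.4 CPM with BPS, a log2 difference of 1.08 (SE 0.09, adjusted p = 5.69e-05). Neither overlapped between the groups, and a complete separation with BPS higher was found for 4.19% of all genes tested. Both differences were larger than that of any feedback inhibitor. Ier2 had a log2 difference of 0.41 (adjusted p = 0.000155), close to that of Dusp1. Ccnd1 had 0.21 (adjusted p = 0.0214) and Srf, which encodes serum response factor, had 0.14 (adjusted p = 0.0191). The ETS factor Etv4 had 0.16 (adjusted p = 0.115) and Egr2 had 0.24 (adjusted p = 0.073), so that neither passed, and Elk3 had 0.01.

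**Figure D5:**
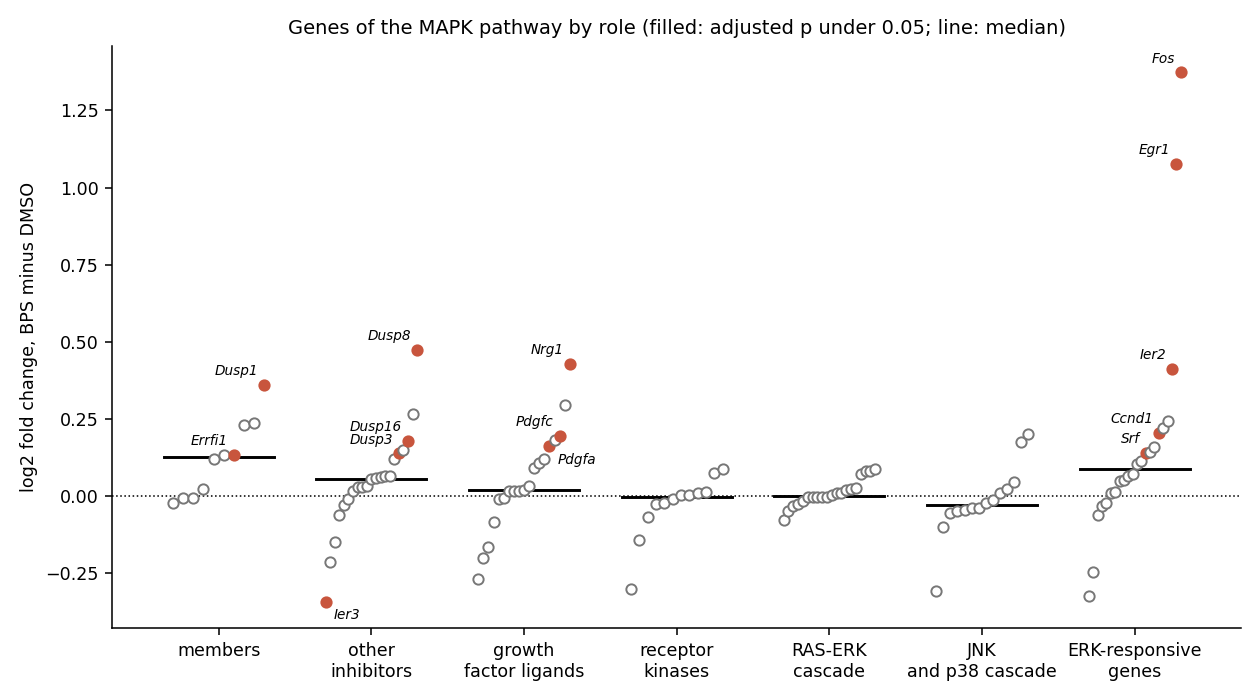
Log2 difference, BPS minus DMSO (vertical axis), of each tested gene by its place in the pathway, with filled points for an adjusted p under 0.05 and a line at each median. Fos (1.37) and Egr1 (1.08) stand highest, and the receptors and both kinase cascades hold no filled point.

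The labelled cell type was checked by markers. All 12 preadipocyte markers were tested, from Col1a1 at 21820 CPM and Pdgfra at 903.8 CPM with DMSO down to Dpp4 at 2.45 and Pi16 at 2.02 CPM. Dpp4 and Pi16 thus lay below the macrophage marker Lyz2 (8.51 CPM) and the endothelial marker Tek (11.1 CPM). Of the 12, Cd34, Thy1 and Itgb1 were called higher in BPS. Over all genes tested, 3.06% were called higher. Of 6 adipocyte markers none was tested, and 5 had at most 3 counts in every library. Of 6 mural cell markers 3, Acta2, Des and Cspg4, were called higher in BPS, while Myh11, Rgs5 and Notch3 overlapped between the groups and did not pass. The summed level of the 6 was 1073 to 1146 CPM (here by assigned library size alone) in DMSO and 1381 to 1458 in BPS, nearly all of it from Acta2 (means of 1037 and 1339 CPM). The summed macrophage level was 11.1 to 17.7 in DMSO and 12.0 to 19.7 in BPS, with 5 of 7 markers tested, none called and Csf1r at 0 throughout. The summed endothelial level was 17.7 to 23.0 and 17.0 to 22.8, with 6 of 6 tested and none called. Of 5 mesothelial markers 2 were tested and Krt19 was called higher, while Msln and Upk3b were at 0 throughout. The part of these markers in the differences of Dusp1 and Errfi1 was not tested.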

How the data were processed

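RNA sequencing libraries were made from total RNA with a directional kit, per the labels' protocols. The authors deposited 1 table of estimated counts for 107384 RefSeq transcripts in 10 libraries, made with kallisto 0.42.4 per the submitters' processing notes. Its index, genome build and strand setting are not given in the sources used here. Estimated counts were matched to gene symbols by accession without version through a RefSeq table (GRCm38.p6), summed per gene and rounded. This placed 86722 transcripts in 32903 genes and 93.1% of counts, and 20662 transcripts with 6.9% of counts were left out. Total counts ran from 37920689 to 42717227 per library, and group totals were compared by an exact two-sided permutation test (p = 0.452). Within groups, chi-square per degree of freedom between replicates was 4.13 to 8.77, so none was a copy of another.

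BPS was compared with DMSO over all 14597 genes that passed filterByExpr, with TMM factors of 0.9854 to 1.008, edgeR 4.0.16's quasi-likelihood test (R 4.3.3) and Benjamini-Hochberg adjustment over all genes, called at 0.05. The code was tested on simulated data. Alternatives were other scalings, filters and tests (DESeq2 1.42.0, limma 3.58.1), a replicate block, exact version matching, curated accessions and each library left out. Removal of GC and length trends was chosen after seeing the data. Transcript lengths and exon overlaps came from GENCODE M21 and upstream windows from RefSeq, which held them for 8 members.

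The members, lists and markers were chosen with earlier results of these data known. Beside the members, the text names of each pathway list the called genes (up to 6 by smallest p) and up to 3 abundant uncalled genes, Egfr, Mapk3 and Fgfr1, and for each member the nearest of the 3 genes most like it across libraries. In all, 1 gene that met this rule is not reported here. Etv1, Etv5, Phlda1, Junb, Elk1, Elk4, Ets2 and Myc were named after their values were seen. Markers of epithelial cells (0 of 4 tested) and Schwann cells (2 of 4 tested, none called) gave no call.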

Additional observations from a re-analysis of the deposited data

Results flagged for a closer look

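In 88 groups of 5 libraries, over the members and the named pathway genes, 4 had 1 library apart from the others by Dixon's test at the 95% level, and 4.4 are expected by chance. Dusp1 in BPS library 2 had 17.6 CPM, with the other 4 BPS libraries between 15.1 and 15.7 CPM. Dusp5 in DMSO library 1 had 7.84 CPM, with the others between 6.69 and 6.9 CPM. Spred2 in DMSO library 4 had 51.3 CPM, with the others between 54.2 and 54.4 CPM. Elk3, an ETS factor of the ERK-responsive list, had 134 CPM in DMSO library 1, with the others between 125 and 126 CPM.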

How the results depend on the processing

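Of the 10 members, 2 passed the test as reported. A single member, Dusp1, passed with scaling by library size alone, with limma-voom, with the replicate block, with exact version matching, with curated accessions alone, and with the replicate block after removal of GC and length trends: 1 member each. DESeq2's Wald test called 3, with Dusp4 added. Leaving out 1 library at a time gave 1 to 2. No member that passed in any of these analyses changed sign. None of the members' transcripts passed with the replicate block either (0). The number of changed genes fell from 712 to 374 with the replicate block, 371 with the block after removal of GC and length trends, 328 with exact version matching and 311 with curated accessions, which hold 72.12% and 78.75% of the counts. The cause of these lower counts was not tested. It ran from 449 to 774 when 1 library was left out, and was lowest without DMSO library 2 (449), BPS library 2 (462), BPS library 3 (465) or BPS library 4 (462). With library size alone, 45.9% of 728 changed genes were higher in BPS, beside 62.8% of 712 as reported. No strong pairing by replicate number was seen: the correlation of deviations between libraries of the same number ran from -0.078 to 0.1. These values cannot settle whether the numbers mark a weakly shared source, which was not stated. Exact version matching could not test Dusp5, Spry4 or Errfi1. At 227 to 307 counts per library, Dusp5 had the least depth of the members, and its interval leaves room for a log2 difference of up to 0.19.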

Other observations

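Upstream motifs can be set beside the calls over all genes, as a description with no test. Of the 11456 tested genes with an upstream window, 342 (2.99%) were called higher and 208 (1.82%) lower in BPS. Among the 165 with a CArG box, 20 (12.1%) were called higher and 5 (3.03%) lower, with a median log2 difference of 0.03. Among the 2713 with the ETS motif CCGGAA, 49 (1.81%) were called higher and 46 (1.7%) lower. Shares called higher were 3.67% for AP-1 (490 genes), 3.44% for EGR (1133 genes), 2.75% for the CRE core (3349 genes) and 3.08% for the dioxin response core (5462 genes). Motifs overlap between windows, and a gene can count under several.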
